A study of Mus musculus with 26 samples.

Results

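Brain cells sorted for the fluorescent reporter of *Pdgfra*-H2B-GFP mice were compared between postnatal day 7 (P7) and embryonic day 13.5 (E13.5). The labels chose the chips: every brain chip of this strain at these ages was taken, 8 of the 26 chips of the series. A well was taken as a cell when it held at least 1000 molecules outside mitochondrial, spike-in and reporter genes. This gave 401 of 1514 cells, 293 of them on 6 E13.5 chips and 108 on 2 P7 chips. The study follows *Pdgfra*-expressing cells of the developing brain and spinal cord and asks what they become. Single cells were caught in the 96 wells of Fluidigm C1 chips. Their mRNA was sequenced by STRT-seq with molecular identifiers, so that each count is a molecule and not a read.

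Mice of both ages carried the same allele, a histone-tagged green fluorescent protein (GFP) placed at the *Pdgfra* locus in heterozygous form, and the labels of these chips name no tamoxifen. Cells were sorted as GFP-positive at both ages. At P7 the paper reports a gradient of GFP. By its qRT-PCR the brighter cells expressed *Pdgfra* and *Olig2* and the dimmer ones did not, and the dimmer population was not taken further. The reporter marks any cell in which the locus is or recently was active, of whatever type, and a stable nuclear protein can outlast the mRNA. E13.5 tissue was dissociated mechanically and P7 tissue with papain. The column headers of the counts carry a number for each chip, which is taken here as that of the experiment. The labels do not name it as such. It was 56 on the P7 chips. Among the E13.5 chips it was 57 on chips 24 and 25, and 138 on chips 1, 2, 3 and 6. Headers of the P7 chips and of chips 24 and 25 begin with a slash, here called the older style. Those of the other chips do not (the newer style). No experiment held both ages, so age, dissociation, the P7 gate on GFP and experiment cannot be told apart in any result given here.

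PDGFRA is the receptor through which platelet-derived growth factor keeps oligodendrocyte precursor cells (OPCs) dividing. In the embryonic forebrain the first cells of this lineage arise from ventral progenitors that also give rise to GABAergic neurons, and the receptor is made as well by mesenchymal cells of the meninges. After birth most *Pdgfra*-expressing cells of the brain tissue itself are OPCs, which pass through committed precursors to newly formed and then myelinating oligodendrocytes.

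E13.5 chips held 23 to 81 cells (median 45.5), and the P7 chips 59 (chip 21) and 49 (chip 22). Summed over its cells, an E13.5 chip gave 64437 to 504603 molecules (median 130869), against 159159 and 114142 at P7. The median cell of a chip held 1852 to 6039 molecules at E13.5 (median 2495) and 2852 and 2106 at P7, values that overlap between the ages (exact permutation p = 0.714, n = 6 and 2). Spike-in molecules per cell did not overlap, with 21.5 to 94.0 at E13.5 (median 65.5) and 204 and 166 at P7. Cellular molecules per spike-in molecule were 30.0 to 133 at E13.5 (median 64.4) and 13.2 and 13.8 at P7. With 28 ways to divide 8 chips, the smallest p these exact two-sided permutation tests can give is 0.0357. The spike-in count reached it (adjusted over 6 measures by the Benjamini-Hochberg method, p = 0.214) and the ratio did not (exact permutation p = 0.107). The mitochondrial share was 5.73% to 10.8% at E13.5 and 6.57% and 5.71% at P7 (exact permutation p = 0.179). No cell had the same counts as a cell of another chip. The part of these differences in what follows was not tested.

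Which cells the reporter marked at each age was asked with 3 lists of marker genes. Each cell was thinned to 1000 molecules, and it was assigned to a class when 2 or more genes of that class gave it 3 or more molecules. At P7 most cells carried oligodendrocyte lineage genes such as *Olig1*, *Sox10* and *Gpr17*, while the E13.5 cells were mainly neuronal or mesenchymal. The oligodendrocyte lineage class took 0% to 8.70% of the cells of an E13.5 chip (median 3.00%), and 88.1% and 83.7% on the P7 chips. The neuronal class, defined by genes of GABAergic neuroblasts such as *Dlx2*, *Gad2* and *Sst*, took 26.1% to 58.5% of cells at E13.5 (median 53.5%). It held 0 of 108 cells at P7, which allows a share of up to 2.78%. Both classes were separated completely by age, and the difference gave the smallest p the test allows (exact permutation p = 0.0357, adjusted over 5 shares p = 0.0893). The mesenchymal class, defined by fibroblast genes such as *Col1a1*, *Col3a1* and *Lum*, took 11.3% to 71.1% at E13.5 (median 33.2%) and 6.78% and 10.2% at P7 (exact permutation p = 0.143). Cells that met more than 1 definition made up 0% to 23.7% of E13.5 chips (median 6.89%) and 0% of the P7 chips (exact permutation p = 0.179). Cells that met no definition made up 8.70% to 30.6% at E13.5 (median 23.4%) and 5.08% and 6.12% at P7 (exact permutation p = 0.0714).

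The sizes of these shares depend on the definition. With 5 molecules from 3 genes the P7 chips held 61.0% and 63.3% oligodendrocyte lineage cells and 32.2% and 28.6% cells of no class. The E13.5 neuronal median was then 27.5% (exact permutation p = 0.0714). Without thinning the neuronal share reached 90.3%.

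**Figure D1:**
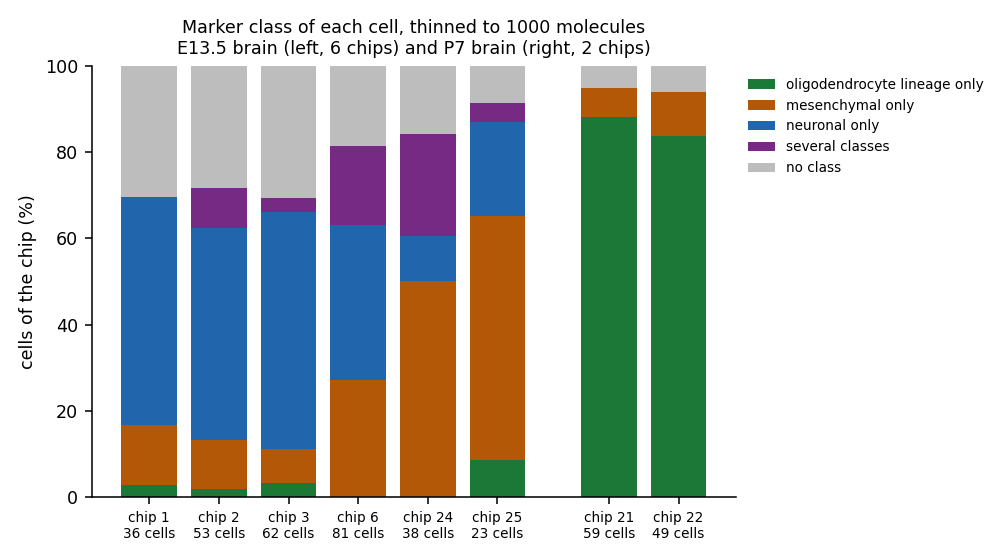
Share of the cells of each chip (%, stacked bars) that met the definition of 1 marker class only, of several classes or of none, after thinning each cell to 1000 molecules. The 2 P7 chips on the right are mainly oligodendrocyte lineage cells, 88.1% and 83.7%, and the 6 E13.5 chips on the left hold neuronal and mesenchymal cells in varying proportions.

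The E13.5 chips differed among themselves by experiment. On chips 24 and 25 the mesenchymal class took 71.1% and 60.9% of cells and the neuronal class 31.6% and 26.1%. On the 4 chips of experiment 138 the mesenchymal class took 11.3% to 45.7% and the neuronal class 52.8% to 58.5%. Counts over all E13.5 cells therefore depend on which experiment is weighed. Of the 293 E13.5 cells, 117 were neuronal only, 70 mesenchymal only, 6 oligodendrocyte lineage only, 32 of several classes and 68 of none. Of the 108 P7 cells, 93 were oligodendrocyte lineage, 9 mesenchymal and 6 of no class. Without thinning, 73 E13.5 cells met several definitions, 65 of them both the mesenchymal and the neuronal one, so such wells became more frequent with depth. Whether they held 2 cells, free RNA or mixed expression was not tested.

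*Pdgfra* itself, the gene whose locus drives the reporter, was unevenly spread over these classes. At E13.5 a *Pdgfra* molecule was found in 64 of 293 sorted cells (21.8%). These were 35 of the 70 mesenchymal cells, 5 of the 6 oligodendrocyte lineage cells, 11 of the 32 cells of several classes and 7 of the 68 cells of no class. Among the neuronal cells it was found in 6 of 117 (5.13%). The median depth was 2702 molecules in the neuronal cells and 3132 in the mesenchymal cells, and its part was not tested. Its pooled level, in counts per 1000000 molecules (CPM), was 1177 in the few E13.5 oligodendrocyte lineage cells, 293 in mesenchymal cells and 28.2 in neuronal cells. At P7, 77 of 108 cells held a *Pdgfra* molecule (71.3%), with 1656 CPM in the oligodendrocyte lineage class and 683 in the mesenchymal class. So the GFP-positive cells at E13.5 were for the most part cells without a counted *Pdgfra* molecule, and these pooled values carry no test. The part of the P7 gate on GFP in the difference between the ages was not tested.

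The few E13.5 oligodendrocyte lineage cells came from chips 1, 2, 3 and 25. They held *Olig1* and *Olig2* at 1553 and 894 CPM, against 1374 and 603 in the P7 class, but these 2 genes also define the class. Genes outside the definition were divided. *Ptprz1*, a receptor-type phosphatase abundant in OPCs, stood at 1742 CPM in them and at 2232 in the P7 class. *Sox11*, a transcription factor of embryonic neural cells, was found in all 6 of them at 3578 CPM and in 19 of 93 P7 cells at 139 CPM. *Top2a*, a topoisomerase of dividing cells, was found in 5 of the 6 and in 16 of the 93. With 6 cells on 4 chips these are descriptions only.

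Molecules of all cells were then summed per chip, and the ages were compared gene by gene with edgeR, taking the chip as the replicate. Of 5163 genes tested, 775 passed a false discovery rate of 0.05 (15.0%). Of these, 415 were higher at P7 (8.04% of the genes tested) and 360 lower (6.97%). The chips of the 2 ages did not overlap for 1546 genes (29.9%), among them 729 of the genes that passed. A difference of more than 4-fold was estimated for 256 of the higher and 267 of the lower genes. The P7 group held no molecule of 68 of the lower genes, and the E13.5 group none of 11 of the higher ones. The median log2 fold change over all genes tested was -0.07. Because the sums mix classes of cells, a changed gene can reflect other cells or other levels within a cell, and the 2 cannot be told apart in them.

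Only 2 P7 chips carry the comparison. Without chip 21, 227 genes passed, 216 of them among the 775, and without chip 22, 353 passed, 331 of them shared. In each of these fits the lone P7 chip is assumed to vary like the E13.5 chips. Set against the E13.5 chips of experiment 138 alone the P7 chips gave 1398 genes (754 shared), and against those of experiment 57 alone 535 (386 of the 613 retested). No gene among the 775 changed its sign in any of these fits. The P7 chips share their style of column header with experiment 57 and not with experiment 138. The part of this in the 2 counts was not tested.

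**Figure D2:**
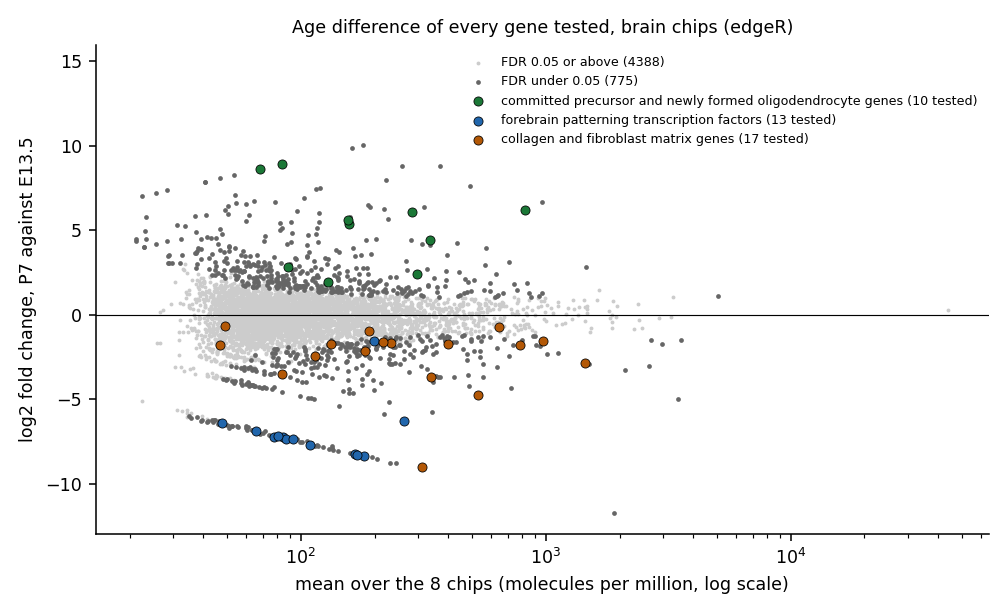
Log2 fold change of each of the 5163 genes tested (P7 against E13.5, edgeR) against its mean level over the 8 chips (CPM, log scale), with grey points for all genes and coloured points for 3 gene lists. Committed precursor genes lie above 0 and forebrain patterning factors below it, and the band at the lower edge holds genes without a molecule at P7, whose fitted values are not bounds.

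Among the PDGF genes, *Pdgfra* rose. Its level was 21.4 to 590 CPM at E13.5 (median 148), and 1577 and 1533 at P7. Both P7 chips were above all E13.5 chips, and the latter differed among themselves far more than the former. The log2 fold change was 2.97 ± 0.59 (SE, n = 6 and 2, adjusted p = 0.00142). It was 4.20 against experiment 138 and 1.68 against experiment 57, both past the threshold. DESeq2 gave 2.87 without passing it (adjusted p = 0.0703), and over all alternatives the adjusted p ranged from 1.38e-12 to 0.0703. *Pdgfrb*, the receptor of mural and mesenchymal cells, was at 0 to 187 CPM at E13.5 and 12.6 and 43.8 at P7 (log2 fold change -1.33 ± 1.04, adjusted p = 0.420). Against experiment 57 alone it fell (-2.71, adjusted p = 0.0256). The 4 ligand genes, among them *Pdgfc* with 5 and 2 molecules, were too low to be tested.

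Genes of the OPC surface and matrix rose together, 11 of 14 tested and none lower, with a median log2 fold change of 4.83 against -0.07 over all genes. *Ptprz1* was at 89.2 to 559 CPM at E13.5 (median 250), and 1828 and 2252 at P7 (log2 fold change 3.14 ± 0.42, adjusted p = 1.88e-05). *Bcan*, the brain-specific proteoglycan brevican, was at 21.8 to 140 (median 74.7), and 1200 and 1025 (4.12 ± 0.42, adjusted p = 6.07e-07). The 2 ages were clearly apart for both. *Cspg4*, the NG2 proteoglycan by which OPCs are often recognised, was at 0 to 295 (median 24.7), and 484 and 526 (3.55 ± 0.76, adjusted p = 0.00275). Its highest E13.5 value came from chip 25, and the call was lost against experiment 57 (1.78, adjusted p = 0.0611) and with DESeq2 (3.13, adjusted p = 0.233). *Lhfpl3* rose from 0 to 25.9 (median 7.35) to 829 and 640 (6.39 ± 0.50, adjusted p = 2.05e-08). *C1ql1*, a secreted protein of the C1q family, had 1 molecule at E13.5 and 58 at P7, a ratio of 234 (counting interval 40.4 to 9414). *Gpr37l1*, an orphan receptor of glial cells, had no E13.5 molecule and 779 and 657 CPM at P7, at least 268-fold higher (adjusted p = 4.95e-08). For such genes the bound takes 3 counts over the whole group that lacks the gene. The 3 members that did not pass were *Vcan*, *Fabp5* and *Sox2ot*.

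Of the oligodendrocyte lineage transcription factors 8 of 10 rose and none fell (median 3.50). *Olig1* was at 23.8 to 234 CPM at E13.5 (median 110), and 1162 and 1253 at P7 (3.53 ± 0.49, adjusted p = 3.53e-05). *Olig2*, which directs ventral progenitors to the lineage, was at 12.9 to 93.1 (median 58.1), and 641 and 359 (3.46 ± 0.49, adjusted p = 3.74e-05). *Sox10*, a factor kept through the whole lineage, was at 1.98 to 84.1 (median 34.3), and 597 and 666 (4.42 ± 0.56, adjusted p = 1.10e-05). All 6 E13.5 chips held molecules of these 3 genes. *Sox8* was at 0 to 140 (median 20.3), and 232 and 385 (3.48 ± 0.80, adjusted p = 0.00545). *Nkx2-2*, which marks cells about to differentiate, was at 0 to 37.4 (median 0), and 220 and 96.4 (4.55 ± 0.91, adjusted p = 0.00160). *Sox8* and *Nkx2-2* did not pass against experiment 57, nor *Sox8* with DESeq2. The call for *Nkx2-2* was also lost without P7 chip 21, and that for *Sox8* without chip 22. Without chip 21 only 4 members of this list passed, and without chip 22 only 5.

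Genes of the next steps, from committed precursor to newly formed oligodendrocyte, rose too. All 10 members tested rose (median 5.50), and 4 more were too low to test. *Gpr17*, a receptor made transiently by committed precursors, was at 0 to 248 at E13.5 (median 11.7), and 3858 and 2357 at P7 (6.19 ± 0.79, adjusted p = 1.11e-05). It was among the most abundant transcripts of the P7 chips, while 2 E13.5 chips had no molecule of it. With DESeq2 it stood at 5.75 (adjusted p = 0.0510). *Neu4*, a sialidase, had no E13.5 molecule and 346 and 202 CPM at P7, at least 105-fold higher (adjusted p = 3.33e-06). *Enpp6*, a choline phosphodiesterase of newly formed oligodendrocytes, had none at E13.5 and 383 and 289 at P7, at least 127-fold higher (adjusted p = 1.07e-06). *Bmp4* was at 23.1 to 186 (median 59.5), and 320 and 210 (1.95 ± 0.56, adjusted p = 0.0212), a difference lost in several alternatives, DESeq2 among them. 

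Myelin genes were already present at P7. Of 5 members tested 3 rose (median 6.25), and 7 were too low to test. *Mbp*, which compacts the membrane, was at 0 to 21.4 (median 6.46), and 679 and 1016 (6.25 ± 0.49, adjusted p = 2.05e-08). *Cnp*, an enzyme of uncompacted myelin, was at 0 to 17.8 (median 0), and 704 and 780 (6.51 ± 0.55, adjusted p = 5.68e-08). *Mag*, an adhesion molecule of later oligodendrocytes, had no E13.5 molecule and 20 at P7 (18.8 and 149 CPM) and was not tested. Another 3 members had no molecule at either age. The other largest rises were *Pllp*, the myelin proteolipid plasmolipin (at least 245-fold), *S100a1* (ratio 578, counting interval 158 to 4794), the glial connexin gene *Gjc3* (at least 75.4-fold) and *Timp4*, an inhibitor of matrix proteases (at least 74.1-fold). *Gjc3* and *Timp4* were not called by DESeq2 (adjusted p = 0.137 and 0.151, the highest of ranges that start at 2.01e-14 and 2.55e-13).

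**Figure D3:**
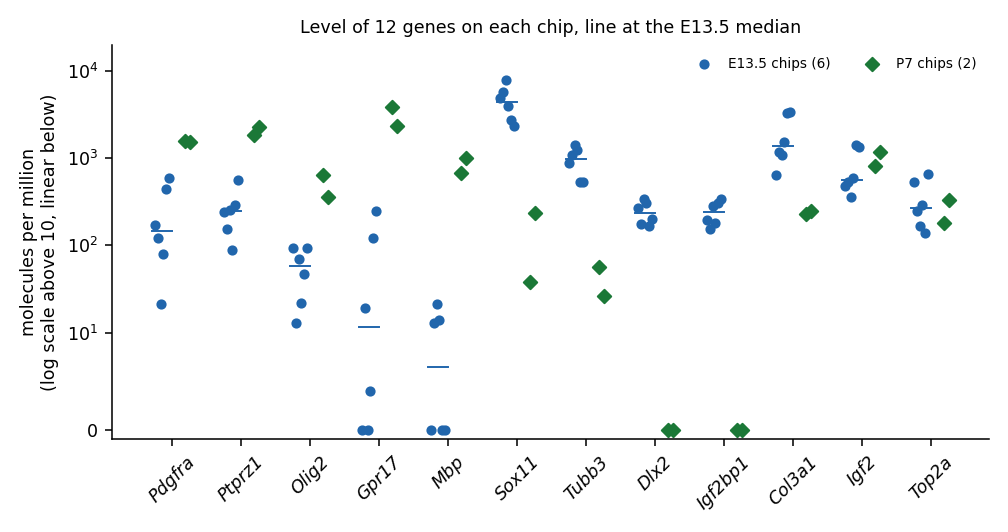
Level of 12 genes on each chip (CPM, log scale above 10 and linear below), with circles for the 6 E13.5 chips, diamonds for the 2 P7 chips and a line at the E13.5 median. Lineage genes on the left are higher on both P7 chips than on any E13.5 chip, Dlx2 and Igf2bp1 are at 0 on both P7 chips, and Igf2 and Top2a overlap between the ages.

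Transcription factors that pattern the embryonic forebrain were lost. Of 13 tested, 12 fell and none rose. Their median log2 fold change was -7.25 as fitted and -3.48 with the 11 genes that lack P7 molecules set at their bounds. Their summed level was 1224 to 3386 CPM at E13.5 (median 2414), and 94.2 and 131 at P7. *Dlx2*, which drives GABAergic fate, was at 168 to 337 at E13.5 (median 234) and at 0 on both P7 chips, at least 24.7-fold lower (adjusted p = 2.48e-05). Its partner *Dlx1* was at 62.1 to 356 (median 223) and at 0, at least 22.3-fold lower (adjusted p = 0.000149). *Lhx6*, a factor of interneurons from the medial ganglionic eminence, was at 93.4 to 394 (median 201) and at 0, at least 21.3-fold lower (adjusted p = 0.000145). *Nkx2-1*, which defines that eminence, was at 37.4 to 171 (median 120) and at 0, at least 9.24-fold lower (adjusted p = 0.00160). These 4 were present on all 6 E13.5 chips and absent from both P7 chips. *Pax6*, a factor of dorsal progenitors, was at least 10.6-fold lower, *Otx2* at least 8.66-fold, *Dlx5* at least 16.1-fold and *Lhx8* at least 5.61-fold (adjusted p from 0.00458 to 0.0290). *Gsx2* had 14 molecules at E13.5 and none at P7 and was not tested. *Gsx1*, also not tested, went the other way, with 1 molecule at E13.5 and 7 at P7. Against experiment 57 only 3152 genes could be tested, and 2 members of this list passed. No named member that was tested there lost its call. Against experiment 138 all 13 passed. Fewer members passed without P7 chip 21, and *Pax6*, *Otx2*, *Dlx5* and *Lhx8* were among those lost.

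Genes of neuroblasts and neurons fell in 13 of 17 tested, and none rose (median -4.0). *Stmn2*, a microtubule regulator of growing axons, was at 127 to 453 at E13.5 (median 320) and at 0 on both P7 chips, at least 33.5-fold lower (adjusted p = 3.95e-05). *Tubb3*, the neuronal tubulin, was at 528 to 1396 (median 989), and 56.5 and 26.3 (-4.35 ± 0.60, adjusted p = 2.99e-05). The GABA-synthesising enzyme gene *Gad2* was at 121 to 543 (median 213) and at 0, at least 19.1-fold lower, and its relative *Gad1* went from 46.6 to 198 (median 164) to 12.6 and 17.5 (-3.16 ± 0.74, adjusted p = 0.00592). The neuropeptide gene *Sst* was at 124 to 620 (median 315) and at 0, at least 27.4-fold lower (adjusted p = 9.85e-05). The fall was shallowest for *Dcx*, a microtubule-binding protein of migrating neuroblasts, with 450 to 1273 (median 881), and 214 and 280 at P7 (-1.77 ± 0.44, adjusted p = 0.00859). *Elavl4*, *Gap43*, *Mapt* and *Snap25* did not pass, and the calls for *Dcx* and *Gad1* were lost without either P7 chip. Fewer members passed without chip 21 and without chip 22. Against experiment 57, where fewer genes were tested, 7 passed.

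Neural progenitor genes were divided. Of 15 tested 5 fell, and none rose (median -0.95). *Sox11* was the most abundant member, at 2328 to 7825 CPM at E13.5 (median 4451), and 37.7 and 237 at P7 (-5.01 ± 0.70, adjusted p = 3.56e-05). It was found in 284 of 293 E13.5 cells and 20 of 108 P7 cells. Its relative *Sox4* was at 466 to 2236 (median 1326), and 170 and 315 (-2.30 ± 0.59, adjusted p = 0.0108). The filament genes *Vim*, at 294 to 763 (median 687), and 107 and 158 (-2.14 ± 0.45, adjusted p = 0.00253), and *Nes*, with 130 molecules at E13.5 and 3 at P7, fell as well, as did *Id4*. The call for *Sox4* was lost against experiment 57 (-0.96, adjusted p = 0.130, range over all alternatives 6.46e-06 to 0.169). *Sox4*, *Vim* and *Nes* all lost theirs without chip 21, and *Nes* without chip 22 too. Other progenitor genes did not pass and overlapped between the ages: *Sox2* at 15.5 to 589 and then 201 and 166, *Sox9* at 136 to 393 and then 226 and 87.6, and *Hes5* at 31.0 to 330 and then 44.0 and 184. *Dll1*, a Notch ligand, was at 0 to 254 and then 44.0 and 26.3. *Fabp7*, a fatty acid carrier of radial glia and OPCs, was at 381 to 4363 (median 451), and 4027 and 2006 at P7 (1.45 ± 0.66, adjusted p = 0.149). A single E13.5 chip, 24, gave its highest value, and the other 5 were below both P7 chips. Over the alternatives its log2 fold change ranged from 0.37 to 2.46, and it passed as higher in some of them. A *Fabp7* molecule was found in 15.1% to 39.5% of the thinned cells of an E13.5 chip, and in 69.5% and 65.3% at P7. Against experiment 138 alone 9 members of this list fell and 2 rose. Against experiment 57 alone, where fewer genes were tested, 2 fell.

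Of 18 cell cycle genes tested 1 passed (*Mcm6*, lower, a call lost in most alternatives). That is 5.56%, near the 6.97% lower over all genes tested, so the count sets this list apart in no way. *Top2a* was at 140 to 652 at E13.5 (median 267), and 182 and 333 at P7 (-0.22 ± 0.50, adjusted p = 0.804). *Mki67*, the proliferation marker, was at 21.4 to 326 (median 113), and 37.7 and 35.0 (-1.85 ± 0.80, adjusted p = 0.129). Both ages thus held dividing cells by these genes. Among the cyclins, *Ccnd1* was at 23.1 to 299 and then 163 and 210 (0.80 ± 0.57, adjusted p = 0.370), and *Ccnd2* at 92.5 to 514 and then 163 and 78.8 (-1.09 ± 0.52, adjusted p = 0.167). *Mki67* was lower against experiment 57 alone (-2.94, adjusted p = 0.00674, range over all alternatives up to 0.360), and *Ccnd1* was higher against experiment 138 alone (1.27, adjusted p = 0.0394, range up to 0.946). The sign of *Top2a* was positive in thinned cells and that of *Ccnd1* negative against experiment 57.

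**Figure D4:**
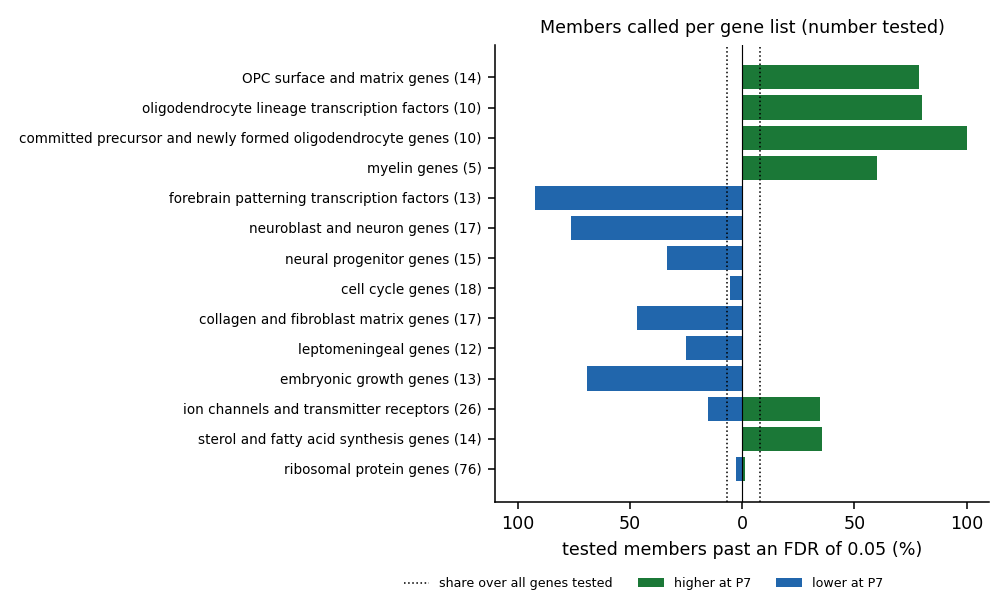
Share of the tested members of each gene list (%, number tested in brackets) that passed a false discovery rate of 0.05, with bars to the right for genes higher at P7 and to the left for genes lower at P7. Dotted lines give the share over all genes tested, 8.04% higher and 6.97% lower.

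Collagen and fibroblast matrix genes fell in 8 of 17 tested, and none rose (median -1.79). They are what fibroblasts deposit around the vessels and in the meninges, and their summed level was 3676 to 15704 at E13.5 (median 5946), and 1414 and 2401 at P7. *Col3a1*, a fibrillar collagen, was at 647 to 3352 at E13.5 (median 1366), and 226 and 245 at P7 (-2.84 ± 0.60, adjusted p = 0.00238). *Lum*, the proteoglycan lumican, was at 277 to 1552 (median 560), and 12.6 and 35.0 (-4.76 ± 0.77, adjusted p = 0.000188). Both were below every E13.5 chip. *Fn1*, fibronectin, was at 53.5 to 1037 (median 182) and at 0 at P7, at least 28.1-fold lower (adjusted p = 0.00606). *Col1a1*, *Col1a2* and the basement membrane collagen *Col4a1* had log2 fold changes of -1.76, -1.54 and -1.79 (SE 0.57, 0.48 and 0.58). Those 3 calls were lost without either P7 chip and without the cells of several classes. *Dcn*, decorin, was at 428 to 1148 and then 295 and 517 (-0.70 ± 0.42, adjusted p = 0.276). Against experiment 57, whose chips had the highest shares of mesenchymal cells, 15 members fell. In some fits without 1 chip fewer members of this list fell than with all chips.

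Of 12 leptomeningeal genes tested 3 were lower and none higher. The transcription factor genes *Foxc1*, at 37.4 to 233 (median 122.6), and 12.6 and 17.5 (-2.85 ± 0.79, adjusted p = 0.0191), and *Twist1*, at least 4.46-fold lower, fell. So did *Igfbp2*, a carrier of insulin-like growth factors, at 471 to 971 (median 654), and 188 and 342 (-1.31 ± 0.42, adjusted p = 0.0404). Each of these 3 calls was lost without either P7 chip. Genes of the mature meninges overlapped between the ages: *Slc6a13*, a GABA and taurine transporter, at 58.8 to 326 and then 113 and 149, *Apod* at 139 to 512 and then 226 and 561, and *Ptgds* at 0 to 589 and then 31.4 and 8.76. *Aldh1a2*, the retinoic acid-synthesising enzyme, had 26 and 16 molecules and was not tested.

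Embryonic growth genes fell in 9 of 13 tested, and none rose (median -3.29). *Igf2bp1*, an RNA-binding protein of fetal tissue, was at 155 to 341 at E13.5 (median 240) and at 0 at P7, at least 19.9-fold lower (adjusted p = 2.58e-05). *Meg3*, an imprinted non-coding RNA, was at 1348 to 3310 (median 3041), and 245 and 263 (-3.29 ± 0.46, adjusted p = 3.74e-05). *Cdkn1c*, an imprinted inhibitor of the cell cycle, was at 187 to 542 (median 319), and 18.8 and 43.8 (-3.41 ± 0.59, adjusted p = 0.000383). *H19*, an imprinted non-coding RNA, was at 172 to 621 (median 231) and had 1 molecule at P7, a ratio of 63.1 (counting interval 11.2 to 2502). *Dlk1* likewise went from 80 molecules to 1, a call lost with DESeq2 and without either P7 chip. In contrast *Igf2*, the growth factor gene next to *H19*, was at 358 to 1429 at E13.5 (median 563), and 811 and 1165 at P7 (0.46 ± 0.45, adjusted p = 0.522). It did not pass in either direction with all chips, and the mesenchymal class cells described further on held most of its P7 molecules. *Mdk*, the growth factor midkine, was at 187 to 1086 and then 251 and 315 (-0.85 ± 0.49, adjusted p = 0.251). *Lin28b* (14 and 0 molecules) and *Hmga2* (56 and 1) were too low to test.

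Ion channel and transmitter receptor genes moved in both directions. Of 174 in the counts 26 could be tested, of which 9 rose and 4 fell (median 0.21). Both counts depended on single chips, and in some fits without 1 chip fewer members rose or no fall was called. The AMPA receptor subunit gene *Gria2* was at 243 to 717 at E13.5 (median 507), and 1621 and 1446 at P7 (1.81 ± 0.37, adjusted p = 0.00200), and *Gria3* at 15.5 to 74.9 (median 25.9), and 289 and 237 (3.00 ± 0.49, adjusted p = 0.000240). Both subunits were above every E13.5 chip. *Kcnj10*, the inward rectifier channel Kir4.1 of glial cells, had 3 molecules at E13.5 and 145 and 105 CPM at P7, a ratio of 47.1 (counting interval 14.9 to 240), a call lost without chip 21. *Cacng4*, an auxiliary subunit of AMPA receptors, was at 0 to 31.7 and then 75.4 and 114 (3.07 ± 1.02, adjusted p = 0.0471), a call lost without either P7 chip. *Gria4*, *Grin3a*, *Gabrg1*, *Kcnd2* and *Kcnip3* rose as well, and *Cacna1g*, *Cacnb3* and *Cacng2* were among those that fell. The sodium channel gene *Scn3a* stayed within the E13.5 range, at 109 to 353 and then 264 and 175 (-0.02 ± 0.45, adjusted p = 0.981). The call for *Gria2* was lost without the mesenchymal class cells (1.32, adjusted p = 0.0884) and without chip 21.

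Genes of sterol and fatty acid synthesis, which supply myelin lipids, rose in 5 of 14 tested, and none fell (median 1.36). *Hmgcs1*, an early enzyme of cholesterol synthesis, was at 93.1 to 343 at E13.5 (median 209), and 710 and 648 at P7 (1.71 ± 0.37, adjusted p = 0.00315). *Scd2*, a desaturase, was at 248 to 659 (median 556), and 1056 and 990 (1.11 ± 0.35, adjusted p = 0.0358). *Acat2*, *Cyp51* and *Fdft1* passed as well. All 5 calls were absent without chip 21, and without chip 22 1 member passed. *Hmgcs1* and *Scd2* also lost their calls without the mesenchymal class cells. Ribosomal protein genes showed little movement, with 1 of 76 higher (*Rpl13*), 2 lower (*Rps10* and *Rps19*) and a median of -0.11. Many of these genes have near-identical copies in the genome, so single calls among them are uncertain.

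Of markers of other cell types, those of endothelium, microglia and red blood cells were scarce at both ages. Endothelial markers summed to 34.7 to 97.0 CPM at E13.5 and 6.28 and 26.3 at P7, with none tested and *Cldn5* at 0. Microglia markers summed to 0 to 5.35 and then 0 and 0, and red blood cell markers to 0 to 18.7 and then 0 and 0. *C1qa* was at 0 on all chips. The pericyte list summed to 235 to 838 and then 553 and 946, with *Vtn* the most abundant (209 to 626 and then 534 and 929, log2 fold change 0.90, adjusted p = 0.134), while *Rgs5* had 6 molecules at E13.5 and none at P7. Astrocyte markers summed to 370 to 1583 (median 524) and then 672 and 876, with *Gja1* at 289 to 1505 and then 62.8 and 158. Of 3 tested *S100b* rose and the connexin gene *Gja1* fell, and *Aqp4* and *Gfap* had 3 molecules and 1 molecule at E13.5 and none at P7. *S100b* is also made by oligodendrocyte lineage cells. The only ependymal marker tested, *Foxj1*, was lower, with no P7 molecule. The only Schwann cell marker tested, *Pmp22*, did not pass. Immediate early genes, which respond to dissociation, summed to 953 to 2896 at E13.5 (median 2276), and 924 and 894 at P7. Of 9 tested 2 were lower (*Dusp1* and *Jund*), and *Fos*, *Jun* and *Egr1* did not pass (log2 fold changes -1.22, -0.99 and -0.67, SE 0.58, 0.44 and 0.42). Against experiment 138 alone *Fos* and *Jun* were lower (adjusted p = 0.00891 and 0.00791, ranges over all alternatives up to 0.970 and 0.827), with 6 members of the list lower in all. Against experiment 57 alone no member was. Their part in the other differences was not tested. None of the 2 sex-linked genes tested passed. *Xist*, made by female cells, was at 1122 to 5525 and then 1326 and 1288, and the Y-linked *Ddx3y* was found on all 8 chips. Over all alternatives the log2 fold change of *Xist* ranged from -1.74 to -0.20, and it did pass as lower among them.

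The same question was asked per cell, as the share of thinned cells of a chip with at least 1 molecule of a gene. A *Pdgfra* molecule was found in 0% to 43.5% of the cells of an E13.5 chip (median 9.41%), and in 54.2% and 65.3% at P7. The ages were apart, and the exact permutation test gave the smallest p it can, 0.0357 (adjusted p = 0.0761). Of 81 genes compared in this way by exact permutation none passed an adjusted p of 0.05, and 38 had an unadjusted p under 0.05. With 8 chips the lowest adjusted p reached was 0.0761.

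Mesenchymal cells were present at both ages, and their molecules were summed apart from the rest to ask whether they too changed. The comparison used 5 to 37 such cells on each of the 6 E13.5 chips and 5 cells on P7 chip 22. Of the 101 E13.5 cells 31 also met another definition, 30 of them the neuronal one, against 0 at P7. Without such cells 35 genes passed, all among those given next. The 4 cells of chip 21 fell short of the 5 required, and their values are given beside the test. A lone P7 chip is assumed to vary like the E13.5 chips, so these p-values say how far chip 22 lies from the E13.5 chips and carry no measure of the spread among P7 chips. With the 9 genes of the definition left out, 44 of 1495 genes passed (2.94%), 23 higher (1.54%) and 21 lower (1.4%). The median log2 fold change over these genes was -0.49, and 263 genes had an unadjusted p under 0.05. DESeq2 called 19 genes, 18 of them shared. An alternative chosen after the data were seen, which takes both P7 chips by asking for 4 cells, gave 112 genes, 38 of them shared. Of the 16 genes that passed and were named by the rule, all passed in it as well, but only 5 (*Apoe*, *Nnat*, *Ptn*, *Sox11* and *Vcam1*) passed in every alternative that tested them. DESeq2 lost 8 of the 16, and the fit without a filter on low counts lost 5.

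**Figure D5:**
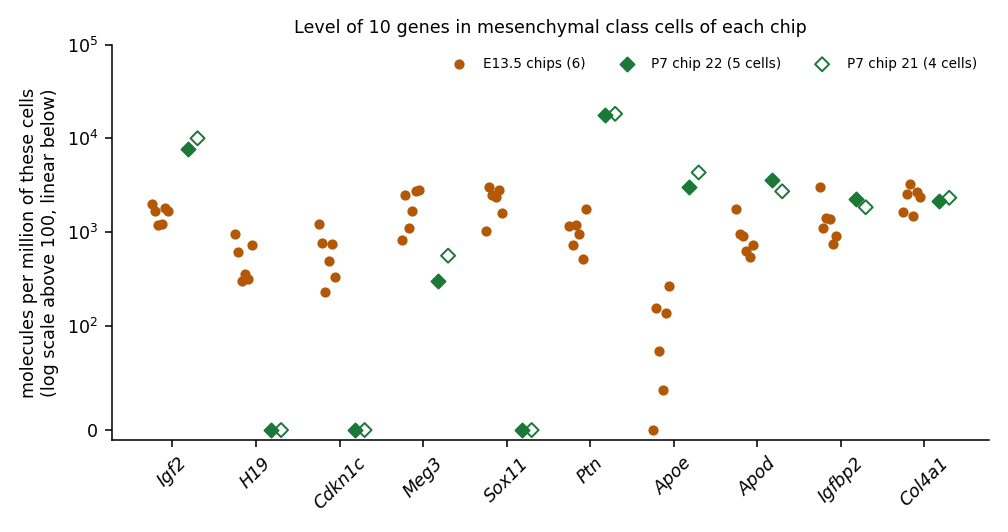
Level of 10 genes in the mesenchymal class cells of each chip (CPM in these cells, log scale above 100 and linear below), with circles for the 6 E13.5 chips, a filled diamond for P7 chip 22, which entered the test, and an open diamond for chip 21, which did not. Igf2, Ptn, Apoe and Apod are higher on both P7 chips than on any E13.5 chip, and H19, Cdkn1c and Sox11 are at 0 on both.

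The genes with the largest differences upward on chip 22 were *Gatm*, *Apoe*, Ifitm3, *Ptn* and *Vcam1*. *Ptn*, the growth factor pleiotrophin, was at 521 to 1774 CPM at E13.5 (median 1050) and at 17630 on chip 22 (3.85 ± 0.42, adjusted p = 4.50e-10), with 18262 on chip 21. *Apoe*, the lipid carrier apolipoprotein E, was at 0 to 266 (median 106) and at 3038 (4.45 ± 0.60, adjusted p = 1.90e-07), with 4325 on chip 21. Both genes were far above every E13.5 chip on both P7 chips. *Apod*, another lipid carrier, was at 548 to 1767 (median 821) and at 3633 (1.84 ± 0.49, adjusted p = 0.0226, range over its alternatives up to 0.289), with 2723 on chip 21. Its call was lost without the filter on low counts and without E13.5 chip 6. *Vcam1*, a cell adhesion molecule, went from 0 to 190 (median 95.1) to 1251, with 881 on chip 21 (3.50 ± 0.86, adjusted p = 0.0108). *Gatm*, an enzyme of creatine synthesis (5.44 ± 1.20), and Ifitm3, an interferon-induced membrane protein (4.20 ± 1.22), were higher as well. The call for Ifitm3 was lost without E13.5 chip 6 and without chip 24. *Gatm* was not called by DESeq2 (adjusted p = 0.592), and Ifitm3 was not called without cells that also met another definition (adjusted p = 0.0837). *Vtn*, vitronectin, the only pericyte marker tested in these cells and chosen after its values were seen, was at 658 to 1442 (median 1229) and at 6254 on chip 22 (2.27 ± 0.45, adjusted p = 0.000773).

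*Igf2* and *H19*, neighbours that share an imprinting control region, went opposite ways in these cells. *Igf2* was at 1176 to 1971 CPM at E13.5 (median 1687) and at 7624 on P7 chip 22 (2.03 ± 0.44, adjusted p = 0.00287), with 10012 on chip 21. *H19* was at 304 to 952 (median 485) and at 0 on both P7 chips, at least 2.38-fold lower on chip 22 (adjusted p = 0.0283). Both calls held with both P7 chips (adjusted p = 2.36e-05 and 0.00359) and were lost without the filter on low counts (*Igf2* 1.93, adjusted p = 0.0930). *H19* was also not called by DESeq2 (adjusted p = 0.282). Over its alternatives the adjusted p of *Igf2* in these cells ranged from 2.05e-05 to 0.0930. The 9 mesenchymal cells held 253 of the 262 *Igf2* molecules of P7, and the 93 oligodendrocyte lineage cells held 9, or 39.0 CPM. Without the mesenchymal class cells *Igf2* accordingly fell with age over all other cells (-2.61, adjusted p = 0.0194, range over all alternatives 0.0104 to 0.896). Against experiment 138 alone, with all cells, it rose (1.09, adjusted p = 0.0104).

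Other growth genes were lower on chip 22. *Cdkn1c*, at 228 to 1223 (median 614), was at 0 on both P7 chips, at least 3.05-fold lower on chip 22 (adjusted p = 0.0209). *Meg3* was at 816 to 2794 (median 2072) and at 298, with 561 on chip 21 (-2.99 ± 0.82, adjusted p = 0.0262). Of the 7 neuroblast and neuron genes tested in these cells 1 passed as lower, and of the 6 cell cycle genes 0 passed. Over all genes 1.4% passed as lower. The median fitted log2 fold changes of the 2 lists were -6.69 and -6.36, and that over all genes was -0.49. Such fitted values are not bounds, and the part of neuronal molecules in the falls given here was not tested. The largest differences downward were those of *Sox11*, *Nnat*, *Hsp90aa1*, *Vcan* and *Npm1*. *Sox11* was at 1020 to 3041 (median 2447) and at 0 on both P7 chips, at least 13.3-fold lower on chip 22 (adjusted p = 7.77e-05). It was found in 62 of the 70 E13.5 cells that were mesenchymal only. *Nnat*, an imprinted membrane protein of developing neural tissue, was at least 13.8-fold lower on chip 22 but at 400 CPM on chip 21. *Vcan*, the matrix proteoglycan versican, was at 599 to 2352 (median 955) and at 0 on both P7 chips, at least 5.94-fold lower on chip 22. The chaperone gene *Hsp90aa1* and the nucleolar gene *Npm1* were at least 9.19-fold and 5.44-fold lower, with 80.1 and 320 CPM on chip 21. Near-identical gene copies make values of these last 2 genes uncertain. *Fn1* was at 0 on both P7 chips and at least 4.19-fold lower on chip 22 (adjusted p = 0.0283). DESeq2 did not call *Cdkn1c*, *Meg3*, *Vcan*, *Hsp90aa1*, *Npm1* or *Fn1*, and *Cdkn1c* and *Meg3* were also lost without the filter. The call for *Fn1* was also lost without E13.5 chip 24 and without chip 25.

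Of 11 leptomeningeal genes tested in these cells only *Apod* passed, and *Pdgfra* did not. *Pdgfra* was at 75.9 to 816 (median 274) and at 357 on chip 22, with 1121 on chip 21 (-0.18 ± 0.91, adjusted p = 0.929). *Igfbp2* was at 754 to 2991 and at 2263, *Col4a1* at 1491 to 3263 and at 2144, and *Slc6a13* at 164 to 491 and at 1013. *Slc6a13* passed only when both P7 chips were taken (adjusted p = 0.0257). *Aldh1a2* was at 0 to 408 and at 476, *Mdk* at 246 to 1308 and at 1787, and *Ptgds* at 0 to 816 and at 0. *Igf2bp1*, with 95 molecules at E13.5 and none on chip 22, had an adjusted p of 0.202.

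The change with age in brain was set against that in spinal cord, in 16 chips of the same strain, with 3 chips of E13.5 and 5 of P7 cord. A further cord chip, 9, was not used here because its title and its file give different ages. A test of the interaction of region and age over 7215 genes gave 2 past the threshold (0.0277%), both with a larger ratio of P7 to E13.5 in brain. *Chl1*, a cell adhesion molecule, was at 23.1 to 103 CPM in E13.5 brain (median 92.0), and 62.8 and 263 in P7 brain. In cord it was at 114 to 218 at E13.5 (median 178) and 0 to 7.53 at P7 (median 0). In brain its change did not pass (1.10 ± 0.55, adjusted p = 0.182), while the cord chips of the 2 ages were far apart (interaction 6.45 ± 0.84 log2, adjusted p = 0.000822). *Pcp4*, a calmodulin-binding peptide, was at 0 to 37.4 in E13.5 brain (median 15.6), and 157.1 and 122.7 at P7. In cord it was at 49.7 to 213 at E13.5 (median 54.4) and 0 to 25.1 at P7 (median 3.41), with an interaction of 6.41 ± 1.06 (adjusted p = 0.0155). *Pcp4* alone among the 775 genes that changed with age in brain passed. An unadjusted p under 0.05 was found for 580 genes, and DESeq2 called 11. Without brain chip 22 no gene passed and without cord chip 23, which held 14 cells, 113 did. No member of the lists described above passed the interaction. Of 25 cell cycle genes, a list singled out after its values were seen, 10 had an unadjusted p under 0.05 by edgeR, against 580 of all 7215. Their median interaction was -1.71 log2, a smaller ratio of P7 to E13.5 in brain.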

How the data were processed

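The deposited counts are the authors' own: for each well and gene symbol a whole number of molecules, mapped to mm10. They were used without change. Positions were not needed for the tests; *Pdgfra* lies on chromosome 5 of GRCm38 (75152292 to 75198215, GENCODE M21). Chips were grouped by their labels. Molecules of the cells of a chip were summed and tested with edgeR (TMM, filterByExpr, quasi-likelihood F-test), with Benjamini-Hochberg adjustment over the tested genes and a threshold of 0.05. The SE is the absolute log2 fold change divided by the root of F. Shares were compared by exact permutation tests over chips. Levels are counts per 1000000 counted molecules (CPM).

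The members and lists were chosen with earlier results of these data known. Named genes are the marked genes of each list and the 8 largest rises and 8 largest falls among genes that passed and whose chips do not overlap (5 each for mesenchymal cells, and all for the interaction); others were chosen after their values were seen. Floors of 3 counts and counting intervals cover counting error only. Software was R 4.3.3 with edgeR 4.0.16 and DESeq2 1.42.0, and Python 3.11.15. The random seed was 1. Some named genes are not reported here.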

Additional observations from a re-analysis of the deposited data

Results flagged for a closer look

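Among the 6 E13.5 chips, 89 groups of values were searched for 1 chip far from the others, and 13 were found. Independent, normally distributed values would give this in about 1 in 20 groups. Whether the values here are of that kind was not tested, so the 13 are descriptions only. Chip 24 stood highest for *Sox8* (140.13 CPM), *Fabp7* (4362.7), *Ccnd1* (298.94), *Ptgds* (588.54) and *Dlk1* (186.84). Chip 25 stood highest for *Cspg4* (294.86), *Slc6a13* (325.9) and *H19* (620.76). Chip 3 stood lowest for *Vim* (294.18) and highest for *Gria3* (74.882), and chip 6 highest for *Cacng4* (31.708). Chip 6 also stood highest for the median molecules per cell (6039.0) and the median genes per cell (2565.0). The change with age differed between brain and cord by the interaction test for *Chl1* (6.4476 log2) and *Pcp4* (6.4102 log2).

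The counts also hold a row for the GFP reporter, which no comparison used. It had 26 molecules at E13.5, in 14 of 293 cells (4.78%), and 21 at P7, in 15 of 108 cells (13.9%), above the 3 counts that a count of 0 allows. Per chip it was at 0 to 103 CPM at E13.5, and 75.4 and 78.8 at P7. The difference between the ages was not tested.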

How the results depend on the processing

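The main limits are the 2 P7 chips and the confounding of age with experiment, dissociation and the P7 gate on GFP. A further limit is the median depth of 1852 to 6039 molecules per cell, at which rare transcripts are missed.

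Genes higher with age numbered 252 in cells with at least 2000 molecules, 249 in thinned cells, 276 against the older-style E13.5 chips (experiment 57) and 701 against the newer (experiment 138), where 697 were lower. Thinned cells gave 199 lower. Leaving out 1 chip gave 139 to 490 higher and 88 to 507 lower. Thinning and stricter cells test fewer genes; the other causes were not tested. The median of all genes moved to -0.19 with DESeq2 and -0.25 without a filter. Of 63 named genes that passed, 33 passed in every alternative that tested them.

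In mesenchymal cells DESeq2 gave 2 lower, no filter 13 higher and 8 lower, and the added 4-cell alternative 48 and 64. Leaving out 1 chip gave 16 to 29 higher and 16 to 26 lower; leaving out the only P7 chip was not possible. The interaction gave 9 higher and 2 lower with DESeq2, 24 and 12 without a filter, and 0 to 86 and 0 to 27 leaving out 1 chip. The cause was not tested.

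Signs turned, without passing unless stated, for *Scn3a* (0.016 with RLE, 0.040 in cells with at least 2000 molecules, 0.867 against older-style chips, -0.43 to 0.24 leaving out 1 chip), *Top2a* (0.437 thinned, -0.69 to 0.088) and *Igf2* (-0.43 older style, and -2.61, which passed, without mesenchymal cells). Against older-style chips they turned for *Sox2* (0.839), *Hes5* (0.772), *Ccnd1* (-0.089), *Slc6a13* (-0.612) and *Apod* (-0.269). Leaving out 1 chip gave -1.37 to 0.074 for *Sox9*, -0.33 to 0.89 for *Apod* and -0.0090 to 0.525 for *Slc6a13*. *Pdgfra* in mesenchymal cells was 0.865 with 4 cells and -0.44 to 0.20 leaving out 1 chip. Differences in medians per cell ranged from -872 to 113 molecules, -306 to 53.1 genes and -18.5 to 13.3 thinned genes. The difference in the share of cells with *Pdgfc* was -0.558 points unthinned. The causes were not tested. Class shares kept their direction in all alternatives, though not their size. No paired analysis was possible because chips of the 2 ages share no animal or experiment.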

Other observations

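*Ttr*, the thyroxine carrier made in bulk by the choroid plexus epithelium, was picked after its values were seen, as the gene with the lowest fitted value. It had 2841 molecules at E13.5 and none at P7, at least 234-fold lower (adjusted p = 0.00732 by edgeR). The E13.5 chips were very unequal, with 5687, 6251, 674 and 2481 CPM on chips 1, 2, 3 and 6, 37.4 on chip 24 and 0 on chip 25. On chip 2 a single cell held 666 of the 967 molecules. On chip 3, 24 of 62 cells held it, with at most 70 molecules in a cell.

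*Cd9*, a tetraspanin of OPCs and oligodendrocytes, was likewise picked after its values were seen, as an abundant P7 gene outside the lists. It was found in 0% to 10.5% of the cells of an E13.5 chip, and in 88.1% and 83.7% of the P7 cells. Its level was 0 to 112 CPM (median 36.1), and 4574 and 2935 at P7 (log2 fold change 6.67 ± 0.48, adjusted p = 7.64e-09 by edgeR). *BC005764*, listed in the counts under that symbol, was 1 of the 8 largest falls, at 171 to 471 CPM (median 254) and at 0 on both P7 chips, at least 24.1-fold lower.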
